A study of Mus musculus with 6 samples.

Results

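Esm1, Plaur, Cd276, Rasgrp3, Mcam, Vash1, Vash2 and Pdgfb are 8 genes linked to the sprouting of blood vessels, taken by name from the 24951 genes counted in endothelial cells of the newborn mouse lung. They were chosen by their role in sprouting with the fold changes of Smad4 mutant against control libraries already in view, so every difference between those groups is given for them as a description, without a test of its own. All 8 passed the filter on low counts. The libraries came from pups at postnatal day 5. Mutant pups were Smad4 f/f;Cdh5-CreERT2, with floxed Smad4 alleles and a tamoxifen-inducible Cre recombinase expressed from the endothelial Cdh5 promoter. Control pups were Smad4 f/f without Cre, although their genotype label reads Wildtype, so the floxed alleles are shared by both groups and no library has Cre with intact Smad4. The dose and day of tamoxifen are not given in the labels. Lungs were digested, cells were pulled out on magnetic beads coated with an antibody to the endothelial surface protein CD31, and polyadenylated RNA was sequenced from 3 control and 3 mutant libraries, described as independent biological samples.

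New vessels grow when VEGF turns some endothelial cells into migrating tip cells, which lead a sprout while the stalk cells behind them divide. Tip cells secrete proteins that free growth factors, loosen the matrix around them and call in pericytes, the mural cells that wrap small vessels. The same VEGF signal also induces inhibitors that limit the sprout, and Vash1, which encodes vasohibin 1, is such a feedback inhibitor made by the endothelium itself. Its relative Vash2 is described as acting in the opposite direction, at the growing front. SMAD4 is the partner shared by the receptor SMADs of the BMP and TGF-beta pathways, and some BMP signals through endothelial SMADs are known to restrain sprouting.

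The vasohibin genes and Esm1 stand for the contrast among the 8 genes, with a high Vash1 level in the mutants, a Vash2 level close to that of the controls and Esm1 between them. The 250 bases before their first start site are therefore shown, from RefSeq on GRCm38.p6 and in the direction of transcription.
Vash1, chr12:86678450-86678699, plus strand: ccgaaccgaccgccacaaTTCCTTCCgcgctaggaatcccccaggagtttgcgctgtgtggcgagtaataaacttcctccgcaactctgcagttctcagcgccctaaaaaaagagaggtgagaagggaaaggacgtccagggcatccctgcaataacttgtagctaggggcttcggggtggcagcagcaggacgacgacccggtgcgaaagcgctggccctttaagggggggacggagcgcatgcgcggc
Vash2, chr1:190979297-190979546, minus strand: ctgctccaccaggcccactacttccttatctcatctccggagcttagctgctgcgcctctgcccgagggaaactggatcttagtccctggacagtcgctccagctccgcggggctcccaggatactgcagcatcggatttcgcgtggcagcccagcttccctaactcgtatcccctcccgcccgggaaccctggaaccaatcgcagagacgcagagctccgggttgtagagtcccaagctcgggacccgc
Esm1, chr13:113209409-113209658, plus strand: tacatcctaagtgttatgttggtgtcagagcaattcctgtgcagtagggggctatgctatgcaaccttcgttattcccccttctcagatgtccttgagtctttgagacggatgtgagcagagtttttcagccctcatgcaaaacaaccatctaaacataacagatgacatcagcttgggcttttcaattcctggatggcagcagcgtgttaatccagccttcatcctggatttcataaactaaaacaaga
Capitals mark the only match among the motifs searched in these windows, a doubled ETS core (GGAAGGAA or TTCCTTCC), which starts 232 bases before the Vash1 start site. That motif is held by 3.12% of 32851 promoter windows of the same length. The other motifs, searched on both strands, were the palindromic SMAD element GTCTAGAC (0.167% of windows), CAGACA or TGTCTG (17.1%), the GC-rich SMAD element GGCGCC (9.59%) and the E-box CACGTG (6.02%). Across the 7 genes with a promoter in the table, the other match was a GGCGCC 58 bases before the Mcam start site. The windows of Vash1 and Vash2 are 60% and 62.8% G or C with 20 and 17 CpG dinucleotides, whereas that of Esm1 is 44% G or C with 3, against a median of 52.4% over all windows.

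Smad4, the deleted gene, stood at 188, 177 and 181 CPM (counts per 1000000 reads assigned to genes, with the library size scaled by a TMM factor) in the 3 controls and at 88.8, 72.9 and 94.2 CPM in the 3 mutants, in the direction of the labels (here and below, values of a group follow the order of replicates 1, 2 and 3). Reads assigned to genes ranged from 14093564 to 21113926 per library. Over all 14934 genes tested with edgeR, 3.27% passed an adjusted p of 0.05, with 1.93% higher and 1.34% lower in the mutants, and in 20.6% the groups were apart, with every mutant library above (11.6%) or below (9.04%) every control library. The median log2 fold change over all tested genes was -0.0024. The summed level of 12 endothelial markers was 10320 to 11569 CPM in the controls and 10895 to 11380 CPM in the mutants, with Cdh5 and Pecam1 the most abundant. In bulk RNA, fewer cells of a type and less RNA per cell cannot be told apart.

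Vash1 was the member with the highest fold change, and its groups were the only ones of the 8 that did not overlap, as they did not in 20.6% of all tested genes. In GRCm38 the gene (ENSMUSG00000021256.5) occupies chromosome 12 from 86678700 to 86692091, plus strand. Its protein pairs with SVBP to remove the last tyrosine from alpha-tubulin. Vash1 stood at 211, 224 and 213 CPM in the 3 controls and at 530.4, 569 and 445 CPM in the 3 mutants. The controls lay close together, and the lowest mutant library was far above the highest control. The group means were 216 ± 6.75 and 515 ± 63.3 CPM (SD, n = 3 each), 2.39-fold higher in the mutants, with a log2 fold change of 1.25 ± 0.10 (SE). Only 0.998% of tested genes had a higher fold change. Vash1 was the 1 member of 8 past the threshold of the all-gene fit, where 3.27% of all tested genes passed. The summed B and T lymphocyte markers, made up mostly of B cell genes, were also higher in every mutant library. They stood at 191 to 213 CPM in the controls and 220.04 to 295 CPM in the mutants. The same arrangement held for Lyve1 (656 to 743 and 951 to 986 CPM), as in 11.6% of all tested genes. Of the 12 endothelial markers, Cdh5, Pecam1 and Esam also showed it, whereas Kdr and Tek were lower in every mutant library. That lower arrangement held in 9.04% of all tested genes, and the median log2 fold change of the 12 markers was 0.03. Lyve1 is a lymphatic gene, but the 6 tested lymphatic markers had a median log2 fold change of -0.03, with 3 above 0. The part of all these genes in the Vash1 level was not tested. Vash1 passed in each of the 12 alternative fits, with log2 fold changes from 1.18, without mutant replicate 2, to 1.35, without mutant replicate 3.

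Vash2, the other vasohibin gene, had overlapping groups and a log2 fold change below 0. It lies on chromosome 1, from 190947646 to 190979296 on the minus strand (ENSMUSG00000037568.12). Its level was 15.4, 18.0 and 21.2 CPM in the 3 controls and 15.3, 16.1 and 16.9 CPM in the 3 mutants. Mutant replicates 2 and 3 lay within the range of the controls, and mutant replicate 1 just below their lowest value. The log2 fold change was -0.18 ± 0.14 (SE), and Vash2 was the least abundant member, with 253 to 439 counts per library. The ratio of Vash1 to Vash2 CPM was 13.7, 12.4 and 10.0 in the 3 controls and 34.6, 35.3 and 26.4 in the 3 mutants. Svbp, which encodes the partner both vasohibins need for activity, stood at 19.0 ± 2.39 and 22.3 ± 0.655 CPM (SD, n = 3 each), a log2 fold change of 0.22 (SE 0.13, edgeR adjusted p = 0.477). Its 3 mutant libraries lay above all controls, as in 11.6% of all tested genes, the lowest by a small margin (21.5 against 21.4 CPM).

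**Figure D1:**
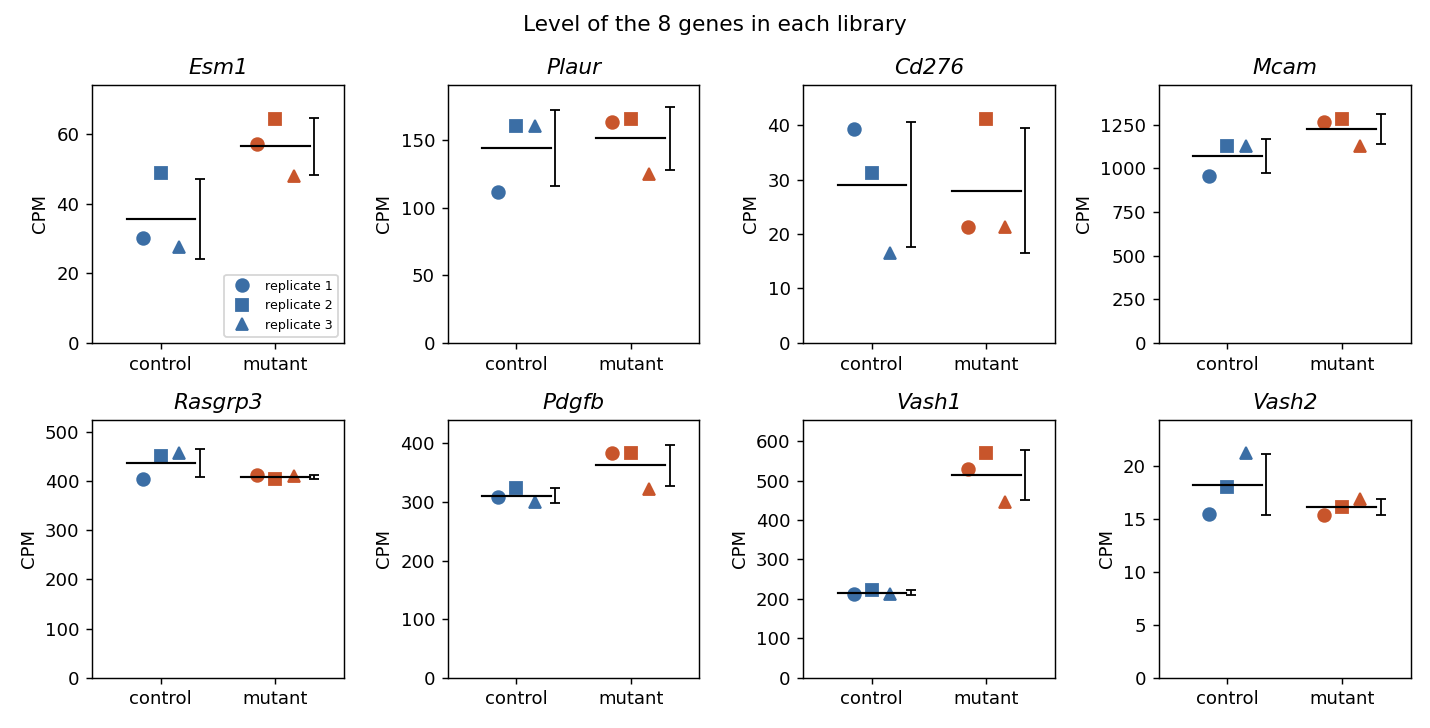
Level of each of the 8 genes in CPM (linear axis from 0), with a point for each library, a line at the group mean and a bar for the SD of 3 libraries. Vash1 is the gene whose mutant libraries (445 to 569 CPM) lie wholly above its control libraries (211 to 224 CPM), while in the other 7 genes the groups overlap.

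Among the secreted products of tip cells, Esm1 stood higher in the mutants and Pdgfb slightly so, and in both the groups overlapped. Esm1 encodes endocan, a proteoglycan that raises VEGF availability and is widely used to mark tip cells. The gene (ENSMUSG00000042379.8) spans chromosome 13 from 113209659 to 113218098 on the plus strand. Its level was 30.2, 48.8 and 27.7 CPM in the 3 controls and 57.0, 64.4 and 48.1 CPM in the 3 mutants. Control replicate 2 lay just above mutant replicate 3, and apart from that pair the mutants were higher. The means were 35.5 ± 11.5 and 56.5 ± 8.19 CPM (SD, n = 3 each), and the log2 fold change was 0.67 ± 0.22 (SE). Esm1 did not pass the all-gene threshold in edgeR. It passed in DESeq2, where 4.85% of all genes passed (2.89% higher and 1.96% lower), with a replicate block, where 3.12% passed, and without control replicate 2, where the log2 fold change was 0.96 and 1.94% of genes passed.

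Pdgfb encodes the B chain of platelet-derived growth factor, which sprouting endothelium releases to recruit pericytes. It lies on chromosome 15, from 79995874 to 80014977 on the minus strand (ENSMUSG00000000489.7). Pdgfb was at 308, 324 and 299.98 CPM in the 3 controls and at 383, 383 and 323 CPM in the 3 mutants. Mutant replicates 1 and 2 were above all controls, whereas mutant replicate 3 lay below control replicate 2. The log2 fold change was 0.22 ± 0.09 (SE). The ratio of Vash1 to Pdgfb was 0.695 ± 0.0124 in the controls and 1.42 ± 0.0597 in the mutants (SD, n = 3 each), with little spread in either group. The receptor gene Pdgfrb, which marks pericytes, had 52.5 ± 21.3 and 64.3 ± 14.9 CPM (edgeR adjusted p = 0.746). Rgs5, another pericyte gene, is named after its values were seen. It stood at 44.0, 41.7 and 29.1 CPM in the 3 controls and 69.9, 60.5 and 107 CPM in the 3 mutants. The groups did not overlap, as in 20.6% of all tested genes. The log2 fold change of Rgs5 was 1.05 (SE 0.25, edgeR adjusted p = 0.0777), and DESeq2 called it (2.71e-05). Over all tested genes 1.93% rose and 1.34% fell. Of the 8 tested genes listed with the PDGF family and its receptors other than Pdgfb (Ndst1 and Furin among them), 0 rose, 1 fell and 7 did not pass. The one that fell was Pdgfd, encoding another ligand of that receptor, from 41.8 ± 4.96 to 24.9 ± 4.85 CPM. On the log2 scale this was -0.74 (SE 0.15, edgeR adjusted p = 0.0291). All 3 mutant libraries lay below all controls, as in 9.04% of all tested genes. Pdgfd was not called without control replicate 1, control replicate 3 or mutant replicate 2 (adjusted p = 0.0684, 0.0856 and 0.0904). Pdgfa, encoding the A chain, was at 61.2 ± 15.1 and 61.7 ± 10.4 CPM (adjusted p = 0.985), and Pdgfrl, a receptor-like gene, had a log2 fold change of 0.28 (adjusted p = 0.610).

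The genes of surface proteins on sprouting cells, Mcam, Plaur and Cd276, had overlapping groups. Mcam encodes CD146, an adhesion molecule of endothelial cells, pericytes and smooth muscle that binds the laminin made with the Lama4 chain. It lies on chromosome 9, from 44134469 to 44142727 on the plus strand (ENSMUSG00000032135.15), and an annotated antisense gene, Gm10687, overlaps it on the opposite strand. Mcam stood at 958, 1127 and 1131 CPM in the 3 controls and at 1265, 1286 and 1130 CPM in the 3 mutants. Here too mutant replicates 1 and 2 exceeded all controls, while mutant replicate 3 lay above control replicates 1 and 2 and just below control replicate 3. The log2 fold change was 0.19 ± 0.09 (SE). Lama4 itself rose from 249 ± 11.96 to 649 ± 90.5 CPM (log2 fold change 1.38, SE 0.11, edgeR adjusted p = 0.000262).

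Plaur encodes the urokinase receptor, which gathers plasmin formation at the front of a migrating cell. It spans chromosome 7 from 24462484 to 24475968 on the plus strand (ENSMUSG00000046223.10). Plaur was at 112, 160 and 160 CPM in the 3 controls and at 163, 166 and 124 CPM in the 3 mutants. The lowest library of each group, control replicate 1 and mutant replicate 3, stood apart from the other two, and the groups overlapped. The log2 fold change was 0.07 ± 0.16 (SE), and it was -0.08 without control replicate 1 and just under 0 without mutant replicate 2. Its ligand gene Plau stood at 38.0 ± 10.3 and 63.8 ± 9.25 CPM (log2 fold change 0.75, SE 0.20, edgeR adjusted p = 0.105). The 3 mutant libraries of Plau lay above all controls, as in 11.6% of all tested genes. Plat, the gene of tissue plasminogen activator, showed the same arrangement, at 183 ± 33.99 and 303 ± 60.4 CPM (log2 fold change 0.73, SE 0.18, adjusted p = 0.0833). DESeq2 called both (adjusted p = 0.00266 for Plau and 0.000644 for Plat). Plau also passed in edgeR without control replicate 3 (0.0247) and Plat without mutant replicate 3 (0.0124). Of 15 tested genes of plasminogen activation, edgeR called 0, DESeq2 2 and limma-voom 0. Over all genes edgeR called 3.27% and DESeq2 4.85%. At an unadjusted p under 0.05 in edgeR there were 4 of the list. The share of all tested genes at that p was not counted.

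Cd276 encodes B7-H3, an immune checkpoint protein that is also found on vessels of tumours and healing tissue. It lies on chromosome 9, from 58524298 to 58555437 on the minus strand (ENSMUSG00000035914.11). Cd276 had the widest spread of the 8 genes, with 39.3, 31.3 and 16.6 CPM in the 3 controls and 21.3, 41.2 and 21.3 CPM in the 3 mutants. High and low libraries occurred in both groups, and the log2 fold change of -0.06 ± 0.39 (SE) moved between -0.45, without mutant replicate 2, and 0.23, without control replicate 1. Of 7 other tested genes listed with the B7 family (Treml2 among them), 1 rose, 0 fell and 6 did not pass, where 1.93% of all tested genes rose. Cd274, encoding the checkpoint ligand PD-L1, was the one that rose, from 19.9 ± 2.39 to 39.0 ± 4.55 CPM (log2 fold change 0.97, SE 0.13, edgeR adjusted p = 0.00316), and it was higher in all 3 mutant libraries. Pdcd1lg2, its relative, stood at 0.682 ± 0.203 and 1.25 ± 0.336 CPM (adjusted p = 0.299).

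Rasgrp3 encodes an exchange factor that loads Ras and Rap proteins when diacylglycerol is produced, and it acts downstream of VEGF receptors in endothelium. It spans chromosome 17 from 75435896 to 75529054 on the plus strand (ENSMUSG00000071042.12). Its level was 404.5, 451 and 457 CPM in the 3 controls and 413, 403 and 409.7 CPM in the 3 mutants. The mutants lay within a narrow band around the lowest control, and the log2 fold change was -0.10 ± 0.08 (SE). Relatives of Rasgrp3 had lower CPM, not corrected for the length of the genes. Rasgrp2, the calcium-responsive member known from platelets, rose from 45.9 ± 3.22 to 66.3 ± 2.98 CPM (log2 fold change 0.53, SE 0.10, edgeR adjusted p = 0.0137), a call that ended without mutant replicate 2 (0.0788). Rasgrp1, known from T cells, was at 21.3 ± 3.64 and 26.2 ± 7.23 CPM (adjusted p = 0.571). Rasgrp4, known from mast cells and named after its values were seen, stood at 21.2 ± 2.30 and 14.4 ± 0.761 CPM. Its log2 fold change was -0.55 (SE 0.13, edgeR adjusted p = 0.0501). All 3 mutant libraries lay below all controls, as in 9.04% of all tested genes. Rasgrp4 passed in DESeq2 (0.0121), with other scaling factors (0.0490 and 0.0459), with no filter (0.0433) and without control replicate 1 (0.0365). Of 27 tested genes of Ras and Rap exchange, 3 rose, 0 fell and 24 did not pass in edgeR. Over all tested genes 1.93% rose and 1.34% fell. DESeq2 called 3 of the list higher and 1 lower (2.89% and 1.96% of all genes). Without mutant replicate 2 the edgeR count was 1. Besides Rasgrp2 the genes that rose in edgeR were Rasa3 (log2 fold change 0.60, adjusted p = 0.00508) and Rras2 (0.57, adjusted p = 0.0190). Rasa3 encodes a GTPase-activating protein that turns Ras and Rap off, and Rras2 is a Ras family gene. The call of Rras2 ended without mutant replicate 1, 2 or 3 (0.0626, 0.102 and 0.0634).

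**Figure D2:**
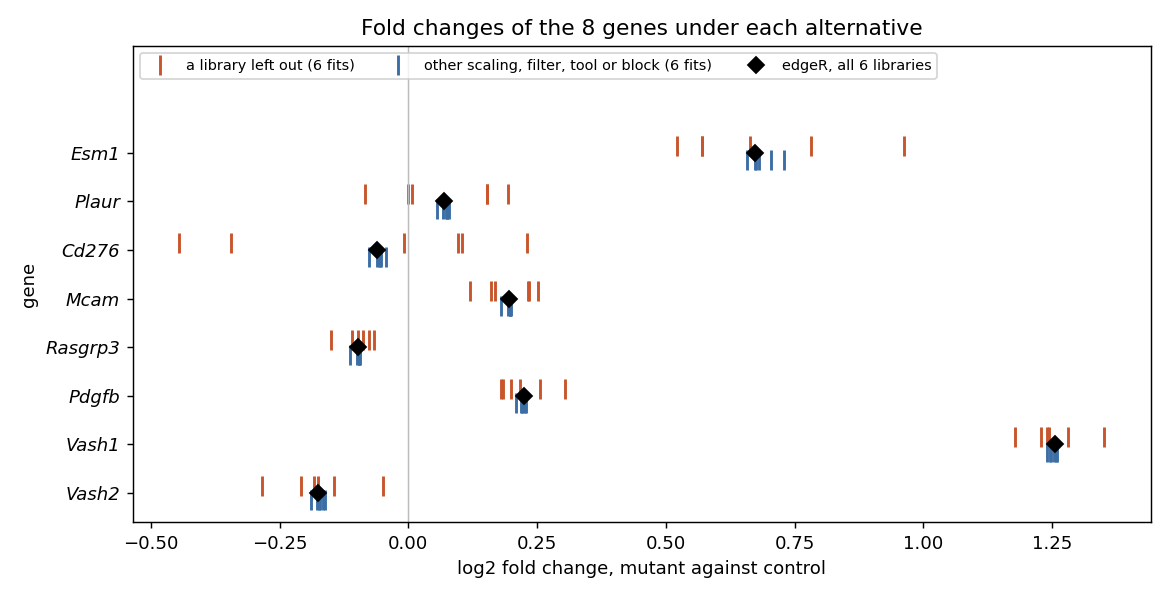
Log2 fold change of mutant against control for each of the 8 genes, from edgeR with all 6 libraries (diamond), from the 6 fits that leave out a library (upper ticks) and from 6 fits with another scaling, filter, tool or a replicate block (lower ticks). Vash1 stays between 1.18 and 1.35 and Esm1 between 0.52 and 0.96, while Cd276 and Plaur have values on both sides of 0.

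Taken as a group, the 8 genes had a median log2 fold change of 0.13, and the 7 without Vash1 one of 0.07. Among them 5 values were above 0 and 3 below, where 49.5% of all tested genes were above 0. In 5 of the genes (Esm1, Plaur, Mcam, Vash1 and Pdgfb) mutant replicate 3 was the lowest of the mutants. Vash1 per Esm1 was 6.99, 4.58 and 7.68 in the 3 controls and 9.31, 8.83 and 9.27 in the 3 mutants. The mutants thus lay above the controls in this ratio as well, and close together.

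Levels of different genes were compared per kilobase of annotated exon. In the controls Mcam was highest, at 320 ± 29.5 CPM per kb, followed by Vash1 at 83.0 ± 2.60, Rasgrp3 at 74.9 ± 4.89, Pdgfb at 74.7 ± 3.01 and Plaur at 55.0 ± 10.7 (SD, n = 3 each). Esm1 at 17.0 ± 5.50, Cd276 at 7.94 ± 3.15 and Vash2 at 4.22 ± 0.670 CPM per kb were the least abundant. Rasgrp3 and Pdgfb overlapped in this order, as did Cd276 and Vash2. In the mutants Vash1 stood at 198 ± 24.3 CPM per kb, further from Pdgfb, which followed at 87.2 ± 8.37. With the longest transcript in place of all exons, Pdgfb (106 ± 4.26) and Rasgrp3 (92.7 ± 6.05) came before Vash1 (83.0 ± 2.60) in the controls, so the order of these 3 depends on the length used. Vash1 exceeded Vash2 in the controls by 19.7 times per kb.

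Other tip cell and sprouting genes included some with clear differences. Among the 35 tested, 13 rose and 1 fell, while 21 did not pass, with a median log2 fold change of 0.30, against a median of -0.0024 and 1.93% higher and 1.34% lower among all tested genes. The list was drawn up with earlier results of these data known, and the 4 genes with the smallest p are Apln, Trp53i11, Lama4 and Lamb1. Apln encodes the tip cell ligand apelin, Trp53i11 a p53-inducible membrane protein and Lamb1 a laminin chain, and their log2 fold changes were 1.70, 1.86 and 1.42. Further genes of the list are named here after their values were seen. Igfbp3, encoding a binding protein of insulin-like growth factors, had the highest fold change of the list and rose from 15.8 ± 1.70 to 83.7 ± 28.4 CPM (log2 fold change 2.40, SE 0.27, edgeR adjusted p = 0.00437). Pgf, encoding placental growth factor, rose from 5.64 ± 1.61 to 11.5 ± 1.85 CPM (log2 fold change 1.04, SE 0.23, edgeR adjusted p = 0.0407). Cxcr4, the receptor gene for CXCL12, rose from 101 ± 17.0 to 166 ± 30.5 CPM (0.73, SE 0.16, adjusted p = 0.0473). Lxn, a carboxypeptidase inhibitor gene, rose from 73.8 ± 7.70 to 119 ± 3.12 CPM (0.68, SE 0.10, adjusted p = 0.00378).

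The guidance receptor genes Plxnd1 and Robo4 rose by smaller steps, from 1008 ± 64.1 to 1373 ± 82.4 CPM (0.45 on the log2 scale, adjusted p = 0.0184) and from 302 ± 20.7 to 407 ± 25.03 CPM (0.43, adjusted p = 0.0263). Angpt2, Unc5b and Col4a1 were the other 3 that rose. The gene that fell was Efnb2, encoding the arterial ephrin-B2, from 679.5 ± 48.6 to 498 ± 59.5 CPM (-0.45, SE 0.10, adjusted p = 0.0471). Kdr, the gene of VEGF receptor 2, was at 1454 ± 117 and 1294 ± 26.3 CPM (edgeR adjusted p = 0.415). In Kdr the mutant libraries all lay below the controls, as in 9.04% of all tested genes. The 14 called genes became 8, 7 and 7 without control replicates 1, 2 and 3, and 7 and 6 without mutant replicates 1 and 2. The calls of Pgf and Cxcr4 ended without any of control replicates 1 to 3 or of mutant replicates 1 and 2 (adjusted p up to 0.189 and 0.130), that of Plxnd1 without control replicate 1, control replicate 2, mutant replicate 1 or mutant replicate 2 (up to 0.105), that of Robo4 without control replicate 1, control replicate 3, mutant replicate 1 or mutant replicate 2 (up to 0.127), and that of Efnb2 without control replicate 2, control replicate 3, mutant replicate 2 or mutant replicate 3 (up to 0.204). The calls of Angpt2, Unc5b and Col4a1 each ended in at least 4 of the 6 fits that leave out a library (adjusted p up to 0.114, 0.112 and 0.120). That of Lxn was kept in each of these fits.

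**Figure D3:**
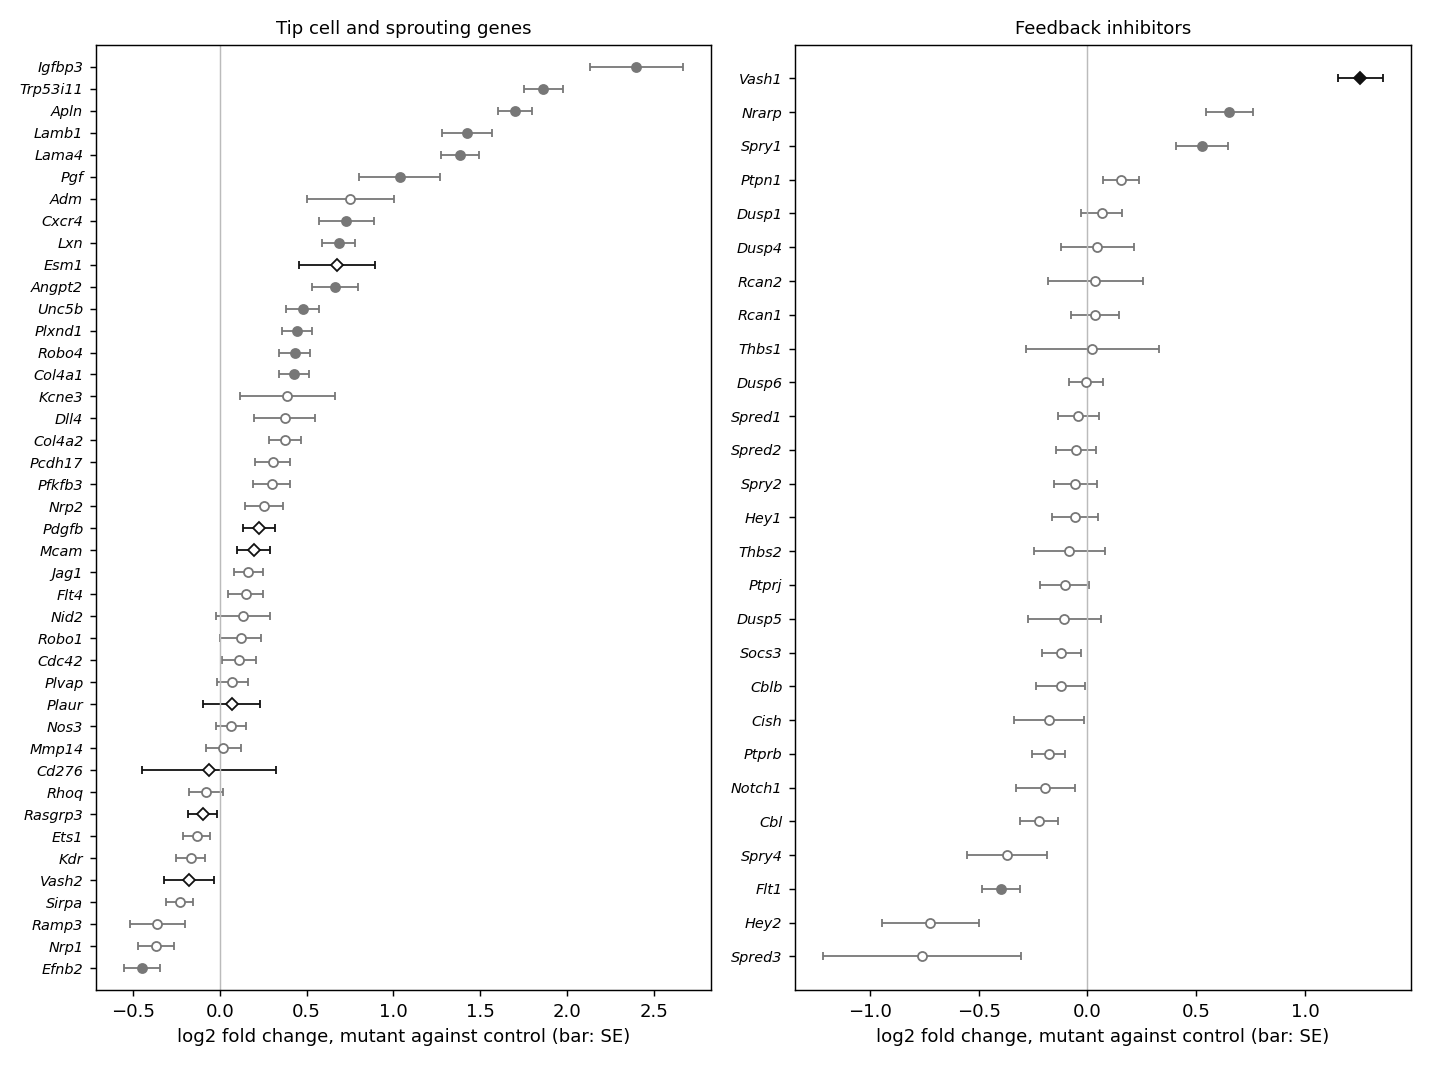
Log2 fold change of mutant against control with its SE (edgeR, 3 libraries per group) for tip cell and sprouting genes (left) and feedback inhibitors (right). Diamonds are the 8 genes described here and filled symbols passed an adjusted p of 0.05; of 35 other sprouting genes 13 rose and 1 fell, and on the right Vash1 at 1.25 lies above Nrarp at 0.65 and Spry1 at 0.53.

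Vash1 can be set beside other genes that feed back on growth factor signalling. Of 26 tested feedback inhibitors, 2 rose, 1 fell and 23 did not pass, with a median log2 fold change of -0.07. Over all tested genes 1.93% rose and 1.34% fell. No feedback inhibitor of the list reached the fold change of Vash1, which was chosen with that value in view. Of all tested genes, only 0.998% had a higher one. Nrarp, a Notch-induced inhibitor of Notch, rose from 117 ± 6.61 to 184 ± 25.3 CPM (log2 fold change 0.65, SE 0.11, edgeR adjusted p = 0.00885), a call that ended without mutant replicate 2 (0.0584). Spry1, a Sprouty inhibitor of Ras signalling, rose from 121 ± 15.6 to 175 ± 21.0 CPM (0.53, SE 0.12, adjusted p = 0.0437). Flt1, which encodes the VEGF decoy receptor, fell from 590.1 ± 46.0 to 448 ± 13.5 CPM (-0.40, SE 0.09, adjusted p = 0.0337). Each of the 3 had all mutant libraries on one side of all controls, as in 20.6% of all tested genes. The calls of Spry1 and Flt1 ended without control replicate 2 (adjusted p = 0.142 and 0.0742), control replicate 3 (0.114 and 0.134), mutant replicate 1 (0.135 and 0.0849) or mutant replicate 2 (0.209 and 0.162). That of Flt1 also ended without mutant replicate 3 (0.0977), and that of Spry1 with upper-quartile factors (0.0517) and limma-voom (0.0519). The count of 3 was 4 without control replicate 1, 1 without control replicate 2, control replicate 3 or mutant replicate 1, and 0 without mutant replicate 2.

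Of 20 tested early response genes that VEGF induces within a short time, edgeR called 0 (1 without control replicate 1 and 1 without control replicate 3). Their median log2 fold change was -0.12, and 4 had an unadjusted p under 0.05. The share of all tested genes at that p was not counted, here and for the list below. DESeq2 called 1 higher and 1 lower (2.89% and 1.96% of all genes), which were Myc (adjusted p = 0.0268) and Egr1 (0.0314). In limma-voom 0 were called. Egr1 stood at 658 ± 83.8 and 510.1 ± 12.5 CPM and Myc at 44.5 ± 10.97 and 64.6 ± 1.08 CPM, with edgeR adjusted p = 0.0880 and 0.127, and Myc passed without control replicate 3 (0.0137). Of 12 genes of the vasohibin partner and the tubulin tyrosine cycle, edgeR, DESeq2 and limma-voom each called 0, with 1 at an unadjusted p under 0.05 in edgeR. Their median was -0.05. Tuba8, a minor alpha-tubulin gene, and Agbl5, a tubulin deglutamylase gene, had log2 fold changes of -0.81 and -0.19 (edgeR adjusted p = 0.220 and 0.467).

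Of 13 adhesion molecule genes set beside Mcam, 1 rose, 0 fell and 12 did not pass, where 1.93% of all tested genes rose. Jam3, a junctional adhesion molecule gene, rose from 20.0 ± 1.40 to 36.9 ± 3.51 CPM (log2 fold change 0.88, SE 0.12, edgeR adjusted p = 0.00274). F11r, which encodes another junctional adhesion molecule, had a log2 fold change of 0.31 (adjusted p = 0.0740) and passed in DESeq2 (0.0304). Without mutant replicate 3 the count of this list was 2.

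The genes whose pattern over the 6 libraries was most like that of each member were read from the 8853 genes whose mean log2 CPM reached 4, as a description. For Vash1 these were Rps18, Smad1 and Bambi, with Pearson correlations of log2 CPM of 0.9990, 0.9989 and 0.9985. Smad1, the gene of a BMP receptor SMAD, stood at 54.2, 57.7 and 56.3 CPM in the 3 controls and at 130, 137 and 115 CPM in the 3 mutants. Bambi, which encodes a pseudoreceptor that blunts BMP and TGF-beta signalling, stood at 39.8, 40.7 and 40.5 CPM in the controls and 92.7, 96.5 and 74.5 CPM in the mutants in the same order. Like Vash1, both were highest in mutant replicate 2 and lowest of the mutants in replicate 3. Their log2 fold changes were 1.18 (SE 0.09, edgeR adjusted p = 0.000262) and 1.12 (SE 0.11, adjusted p = 0.000758). Rps18, a ribosomal protein gene, ran in parallel at a log2 fold change of only 0.22 (adjusted p = 0.179). For Esm1 the leading genes were Atg14, Gadd45a and Ilk (0.9987, 0.9905 and 0.9877), and for Pdgfb they were Polr1c, Tmem252 and Dcaf5 (0.9896, 0.9849 and 0.9845). For Mcam they were Cdr2, Abt1 and Sesn2, with 0.9974 for Cdr2. For Plaur they included Hexim1 and Ppp1r18, with 0.9913 for Hexim1. For Cd276 they were Nbr1, Sh3bp5l and Podxl2, with 0.9911 for Nbr1. For Rasgrp3 they were Tulp4, Mdm1 and Fpgs, with 0.9952 for Tulp4, and for Vash2 Rps6ka1, Cit and Uspl1, with 0.9757 for Rps6ka1. The 6 points of each correlation share their group structure, scaling and depth. Each gene named is among the 3 highest of the 8853 searched. The highest value was at least 0.9757 for every member, also where the groups overlapped.

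Several members are also known from cells other than endothelium, and markers of those cells were present in these libraries. Fibroblast markers summed to 1611, 1707 and 1106 CPM in the 3 controls and to 1684, 1961 and 1300 CPM in the 3 mutants, led by Col3a1 and Col1a2. Control replicate 3 was the lowest of the controls and mutant replicate 2 the highest of the mutants for this sum, as for Cd276, but mutant replicate 1 was high in the sum and low in Cd276. Pericyte and smooth muscle markers, led by Mylk and Acta2, summed to 692, 713 and 546 CPM in the controls and 643, 781 and 638 CPM in the mutants in the order of the replicates. In the mutants this sum and Mcam ran in the same order, highest in replicate 2 and lowest in replicate 3, and in the controls the sum was lowest in replicate 3 while Mcam was lowest in replicate 1. Macrophage and monocyte markers, led by Lyz2 and Mrc1, summed to 919 to 1065 CPM in the controls and 923 to 1041 CPM in the mutants, neutrophil markers, led by S100a9 and S100a8, to 62.0 to 139 and 94.6 to 139 CPM. Platelet and megakaryocyte markers, led by Itga2b and Gp1ba, summed to 83.7 to 110.1 and 74.8 to 101 CPM. B and T lymphocyte markers, led by Ms4a1, summed to 191 to 213 CPM in the controls and 220.0 to 295 CPM in the mutants, so that the groups did not overlap. B cell genes made up most of this sum and had positive log2 fold changes (0.58 for Ms4a1, 0.36 for Cd79a), whereas those of the T cell genes Cd3e, Cd3d, Cd3g and Cd8a were negative (-0.54, -0.50, -0.32 and -0.95) at levels of up to 3.13 CPM, and none of these passed the test. Epithelial markers, led by Sftpc and Ager, summed to 4119, 3450 and 2240 CPM in the 3 controls and to 3053, 3327 and 2911 CPM in the 3 mutants. This sum and Cd276 had the same order in the controls, and both were highest of the mutants in replicate 2. Mesothelial markers, led by Msln and Upk3b, summed to 35.0 to 76.4 CPM in the controls and 54.0 to 58.2 CPM in the mutants.

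edgeR called 0 of the 15 pericyte and smooth muscle, 12 fibroblast, 14 macrophage and monocyte, 9 neutrophil, 9 platelet and megakaryocyte, 9 B and T lymphocyte, 10 epithelial and 5 mesothelial markers tested. At an unadjusted p under 0.05 these counts were 2, 1, 3, 0, 0, 3, 0 and 0. The share of all tested genes at that p was not counted. DESeq2 called 1 pericyte and smooth muscle, 1 macrophage and monocyte and 1 lymphocyte marker, and limma-voom called 0 in each list. Over all genes DESeq2 called 4.85%. Without mutant replicate 1 edgeR called 3 macrophage and monocyte markers, and it called 1 platelet marker without control replicate 1, 1 epithelial marker without control replicate 3 and 1 lymphocyte marker without mutant replicate 2. Of 12 endothelial markers, 0 rose and 1 fell, where 1.93% of all tested genes rose and 1.34% fell. The marker that fell was the angiopoietin receptor gene Tek (log2 fold change -0.50, edgeR adjusted p = 0.0128). That call ended without control replicate 3 or mutant replicate 2 (0.0540 and 0.0760). Of 6 lymphatic markers, 1 rose, which was Lyve1 (0.44, adjusted p = 0.0166), and that call ended without control replicate 2 or mutant replicate 1 or 2 (0.0622, 0.0700 and 0.0904). The sum of the lymphatic markers, led by Lyve1 and Flt4, was 1169 to 1415 CPM in the controls and 1529 to 1594 CPM in the mutants, while the median log2 fold change of the list was -0.03. Lyve1 accounted for the higher sum, at 713 ± 50.1 and 968 ± 17.2 CPM. Prox1, which defines lymphatic endothelium, Mmrn1 and Reln had log2 fold changes of -0.13, -0.29 and -0.42 (edgeR adjusted p = 0.735, 0.520 and 0.433). Those of Flt4 and Pdpn were above 0, at 0.15 and 0.07 (edgeR adjusted p = 0.556 and 0.924), and Ccl21a had 0 counts in every library. Ly6g, which defines neutrophils, had 0 to 4 counts per library and was not tested. The part of these other cells in the levels of the 8 genes was not tested.

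**Figure D4:**
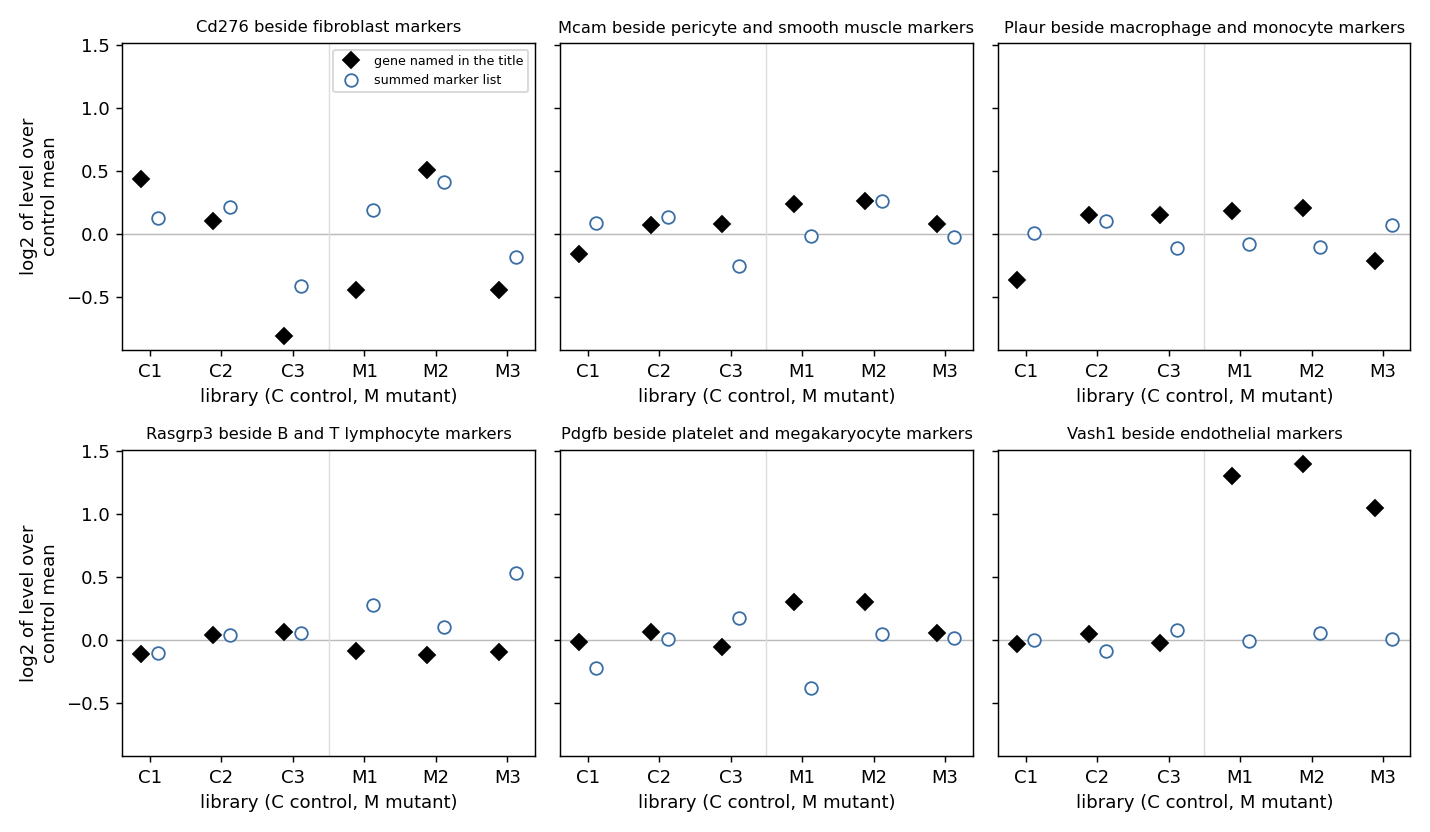
Level in each library as the log2 of its ratio to the control mean, for 6 of the 8 genes (diamonds) and the summed CPM of a marker list of cells known to express the gene (circles); C1 to C3 are control and M1 to M3 mutant libraries. Vash1 stands at 1.05 to 1.40 in the mutants while the endothelial sum stays between -0.01 and 0.05 there, and Cd276 has its high and low libraries in both groups.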

How the data were processed

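The authors deposited raw gene counts, whole numbers per gene symbol and library, in a combined table and in single-library files, whose values were identical. The submitters' processing notes name mm10 and, with no role, DESeq2. What aligned and counted the reads, on which annotation and with which strand setting, is not given in the sources used here, so Mcam and Cd276 reads cannot be told apart from those of overlapping antisense genes. Reads with no feature (53.9% to 58.2% of each library) and ambiguous reads were left out. Groups and replicate numbers came from the sample titles.

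Testing used edgeR 4.0.16 under R 4.3.3 (filterByExpr, TMM factors, robust quasi-likelihood F test, two-sided, 6 libraries, Benjamini-Hochberg over 14934 genes, threshold 0.05). The SE is the log2 fold change divided by the square root of F. Alternatives were DESeq2 1.42.0, limma-voom (limma 3.58.1), other scaling factors, no filter, a replicate block and leaving out each library. With all 6 libraries, replicates of a group differed by more than sampling noise (lowest chi-square per degree of freedom, 12.3). The fits were also run on simulated data, and the outcome is not reported here. A count of 3 corresponds to 0.140 to 0.214 CPM.

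The 8 members and the lists (9 of pathways, 10 of cell markers, 266 of 267 symbols matched) were chosen with earlier results of these data known. Named genes were the members, Smad4, from each pathway list up to 4 called genes with the smallest p (or, with fewer than 2 called, the 2 with the smallest p), fixed partners, from each marker list the 2 most abundant and any called, and the 3 genes most correlated with each member. Some genes that this rule names are not reported here. Other genes are said to be named after their values were seen. Coordinates and exon lengths are from GENCODE M21 on GRCm38, the assembly of mm10, and promoters from RefSeq.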

Additional observations from a re-analysis of the deposited data

How the results depend on the processing

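The count of 488 called genes became 747 in DESeq2 and 211 to 428 when each library was left out in turn, lowest without mutant replicate 2. Of the 8 genes, 1 was called, with 2 in DESeq2 and 1 to 2 on leaving out a library, the addition being Esm1. The 14 called tip cell genes became 6 to 14, the 3 feedback inhibitors 0 to 4, and the 8 genes of the partner and marker lists 17 in DESeq2 and 4 to 10 on leaving out a library. The fits that leave out a library also have fewer libraries, and the cause of these shifts was not tested. Over the 64 named genes other than the 8 members, 684 of 768 comparisons with an alternative kept their side of the threshold, 66 lost the call and 18 gained it. The sign differed in 18 of the 768, all for genes not called, and in 5 of 96 comparisons of the members, for Plaur and Cd276.

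With a replicate block the counts were 466 genes, 2 of the 8 (Esm1 added), 10 tip cell genes and 2 feedback inhibitors, and the calls of Pgf (adjusted p = 0.0550), Cxcr4 (0.133), Efnb2 (0.0745), Col4a1 (0.0557) and Flt1 (0.0640) ended. Whether the numbers pair the samples cannot be decided here, because each deviation is taken from a mean of only 3 libraries. Deviations of same-numbered libraries correlated at -0.00955, 0.0194 and 0.156 for replicates 1, 2 and 3. Control replicates 2 and 3 correlated best with their own number, and control replicate 1 with mutant replicate 2 (0.119). Esm1 was called in 3 of 12 alternatives and Vash1 in 12, and Vash2 and Cd276 rest on the fewest counts.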
